A study of Plutella xylostella with 12 samples.

Results

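Ast-a, the allatostatin A gene of the diamondback moth (Plutella xylostella), was followed across 4 groups of larvae. It was chosen by its identifier, LOC105380104, and is 1 of 19364 features in the deposited tables. The series holds 12 RNA-seq libraries of whole fourth-instar larvae, each a pool of 8 larvae, with 3 libraries in each group. Female and male larvae of a laboratory population grew at 25 °C until early in the third instar, on cabbage, and were then either kept at 25 °C or moved to 10 °C until the middle of the fourth instar. The question of the series is whether the response to cold depends on sex. The labels name no mutation or drug in any group.

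Allatostatin A is made as a long precursor protein that is cut into several short amidated peptides sharing a common end. The peptides were first found in cockroaches as brake signals on the corpora allata, the glands that make juvenile hormone. In Drosophila they come from brain neurons and from hormone-secreting cells of the midgut, act through receptors related to those for galanin, and reduce feeding. In caterpillars members of this peptide family inhibit contraction of the gut. Whole bodies were sequenced here, so brain and gut sources of the transcript were measured together, and fewer cells making it cannot be told apart from less RNA per cell.

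Between 10183278 and 30106219 gene reads were counted per library. At 10 °C the libraries did not all follow their sex labels. The 395 genes at least 16-fold higher in males at 25 °C had a median level, as a percent of the male 25 °C mean, of 0 to 33.6 in the female 10 °C libraries and of 0.0969 to 55.5 in the male 10 °C libraries. These 395 genes were called by edgeR in a fit of the 25 °C libraries alone. Female replicates 2 and 3 stood at 8.86 and 33.6, and male replicate 3 had the value of 0.0969. Results below keep the labels as given. The edgeR cold comparisons of Ast-a are also given without the doubted libraries, and those on TPM and intron share without the 10 °C libraries numbered 3. Values of other genes are given with all libraries only.

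The Ast-a gene model spans 29149 bp of scaffold NW_011952039, from 107350 to 136498 on the plus strand, with 4 exons of 1055 bp in total and 1 annotated transcript. No other annotated gene overlaps it. Over all libraries it collected 1020 reads, of which 883 lay in exons and 137 in introns. All 883 exon reads mapped uniquely, and the 16 reads that also matched elsewhere were intron reads. Of the exon reads, 486 (55.0%) spanned a junction between exons. Exons held 837 reads per kb and introns 4.88 reads per kb. Its mean level was 5.43 TPM (transcripts in 1000000, a measure per length of exon), above that of 52.7% of the 15027 genes tested.

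In deposited TPM the 4 groups overlapped. Female larvae at 25 °C had 5.51, 8.29 and 3.33 TPM in replicates 1, 2 and 4, with a mean of 5.71 ± 2.49 (SD, n = 3). Female larvae at 10 °C had 3.88, 5.47 and 6.98 TPM in replicates 1, 2 and 3, with a mean of 5.44 ± 1.55. Male larvae at 25 °C had 4.08, 3.57 and 7.40 TPM, with a mean of 5.02 ± 2.08. Male larvae at 10 °C had 4.597, 5.02 and 7.003 TPM, with a mean of 5.54 ± 1.29. No group lay wholly above or below another. In order of their means the groups ran female 25 °C, male 10 °C, female 10 °C and male 25 °C, and no neighbours in this order differed beyond their SD. The whole range over 12 libraries, from 3.33 to 8.29 TPM, was already spanned by the female 25 °C libraries alone. Taken on log2(TPM + 1), the mean at 10 °C was 0.07 above that at 25 °C (two-sided exact permutation test of 6 against 6 libraries, p = 0.751). Without the 10 °C libraries numbered 3 it was -0.093 (exact permutation p = 0.7). With all libraries, the difference was -0.018 among females (exact p = 0.9) and 0.15 among males (exact p = 0.6), where 3 against 3 libraries cannot give a p below 0.1.

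**Figure D1:**
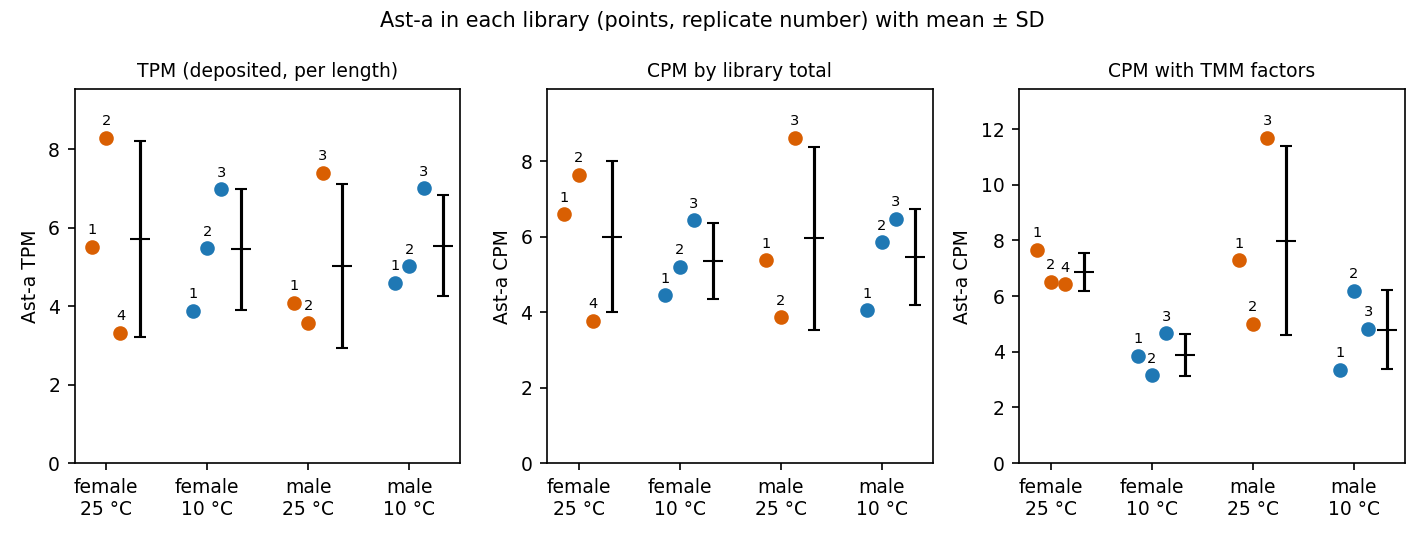
Ast-a in each library on 3 scales, as TPM, as CPM (counts in 1000000 reads) by library total and as CPM with TMM factors, by group on the horizontal axis. Points are libraries with their replicate number, and bars are the mean ± SD of 3 libraries. The groups overlap in TPM and by library total, while with TMM factors the female 10 °C libraries, at most 4.66 CPM, lie below the female 25 °C libraries, at least 6.42 CPM.

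The picture was different when libraries were scaled by TMM, a method that sets the bulk of genes level between libraries. On this scale the mean of Ast-a was lower at 10 °C in both sexes, but not past the threshold of the main test. Female libraries had 7.66, 6.51 and 6.42 CPM at 25 °C (replicates 1, 2 and 4) and 3.86, 3.16 and 4.66 CPM at 10 °C, and the groups did not overlap. Of all genes tested, 9.14% had female 10 °C libraries that were all below the 25 °C libraries on this scale. The means were 6.86 ± 0.689 CPM at 25 °C and 3.89 ± 0.751 CPM at 10 °C (n = 3), a log2 change of -0.82 ± 0.42 (SE) with a 95% interval from -1.74 to 0.10. This did not pass the test over all genes (quasi-likelihood test of edgeR, p adjusted by Benjamini-Hochberg = 0.321), in which 0.0399% of genes were called. DESeq2 (adjusted p = 0.215, with 5.37% of genes called) and voom (adjusted p = 0.142, with 10.7%) did not call it either. Without the female and male 10 °C libraries numbered 3 the log2 change was -0.96 (edgeR adjusted p = 0.484). Without female 10 °C replicate 2 as well it was -0.75 (edgeR adjusted p = 1), with the 1 cold female library left assumed to vary like those of the other groups.

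In males the groups overlapped. At 25 °C the libraries had 7.29, 5.00 and 11.7 CPM, and at 10 °C 3.35, 6.20 and 4.83 CPM, on the TMM scale. Replicate 3 at 25 °C stood above all other libraries of the series. The means were 7.99 ± 3.40 and 4.79 ± 1.42 CPM, a log2 change of -0.74 ± 0.42 with a 95% interval from -1.66 to 0.17 (edgeR adjusted p = 0.228, with 0.02% of genes called). Leaving out male 25 °C replicate 3 moved the log2 change to -0.30 (edgeR adjusted p = 0.681), and offsets that remove the trend of counts with exon length moved it to -0.46. The voom test of limma used the same TMM factors and a quality weight for each library, so libraries did not count equally. It gave -1.04 and passed (adjusted p = 0.0363), with 46.8% of genes called. DESeq2 gave an adjusted p of 0.15, with 23.7% called. Without the 10 °C libraries numbered 3 the log2 change in males was -0.74 (edgeR adjusted p = 0.45), and without female 10 °C replicate 2 as well, which enters through the shared fit, it was -0.64 (edgeR adjusted p = 0.504).

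Averaged over both sexes, Ast-a had a log2 change of -0.78 ± 0.30 at 10 °C with a 95% interval from -1.43 to -0.13. The unadjusted p was 0.0226 and the edgeR adjusted p 0.0694, so it missed the threshold of 0.05 in a comparison where 23% of genes passed. DESeq2 (-0.75, adjusted p = 0.0236) and voom (-0.90, adjusted p = 0.0105) called it lower, among 39.6% and 50.8% of genes called. On exon reads alone the change was -0.89 ± 0.32 (edgeR adjusted p = 0.0578). On total reads, offsets for exon length moved it to -0.55, with a 95% interval from -1.16 to 0.07 (edgeR adjusted p = 0.154). Of the libraries left out in turn, male 25 °C replicate 3 moved it most, to -0.56, with an interval from -1.26 to 0.14 (edgeR adjusted p = 0.206). Without the 10 °C libraries numbered 3 the change on total reads was -0.85, with a 95% interval from -1.70 to -0.01 (edgeR adjusted p = 0.164). In that fit edgeR called 8 of 15353 genes, against 3453 of 15027 with all libraries, so the adjusted p rose in a comparison with few calls. Without female 10 °C replicate 2 as well the change was -0.69, with a single cold female library left, so no test of it is given here.

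The size of this change rested on the scaling. With library totals alone the averaged log2 change was -0.15 ± 0.33 (edgeR adjusted p = 0.729). By library total the cold libraries had 5.41 ± 1.02 CPM of Ast-a and those of 25 °C 5.98 ± 1.99 CPM (SD, n = 6). The TMM factors were 0.944 to 1.65 in the cold libraries and 0.588 to 1.17 in those kept at 25 °C. The median gene had a log2 change of 0.23 with TMM, 0.88 with library totals and 0.67 on log2(TPM + 1). Relative to that median, Ast-a stood at -1.01 with TMM, -1.02 with library totals and -0.60 on log2(TPM + 1). Its change was above that of 18.7%, 17.7% and 19.9% of the genes on these scales. A library factor shifts all genes of a library alike. The values with TMM and with library totals were therefore bound to be close, and they do not count as separate results.

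**Figure D2:**
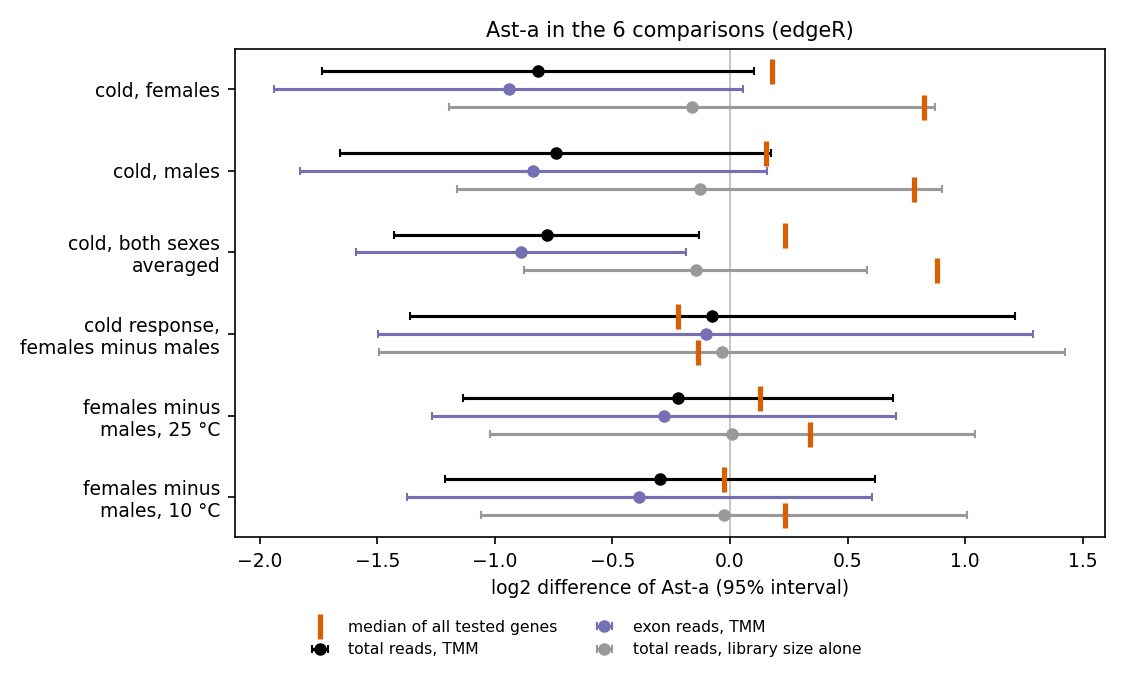
Log2 differences of Ast-a in the 6 comparisons, with 95% intervals from edgeR on the horizontal axis, for total reads with TMM, exon reads with TMM and total reads with library size alone. Orange ticks mark the median of all tested genes for total reads. In the averaged cold comparison Ast-a lies about 1 log2 unit below that median, at -0.78 against 0.23 with TMM and at -0.15 against 0.88 with library size. The likeness of these distances follows from the scaling, which shifts all genes of a library alike.

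The cold responses of females and males differed by less than their error, and the interval of the difference was wide. The difference between females and males in log2 change was -0.08 ± 0.59, with a 95% interval from -1.36 to 1.21 (edgeR adjusted p = 0.996). A difference of up to about 1.2 on the log2 scale in either direction therefore lies within the interval. Without the 10 °C libraries numbered 3 the difference was -0.22 (edgeR adjusted p = 0.9999), and without female 10 °C replicate 2 as well it was -0.10 (edgeR adjusted p = 0.9999). Over all 15027 genes edgeR called 0 (0%) here, and 1351 had p under 0.05 before adjustment. DESeq2 called 15 genes (0.111%) and voom 8 (0.0532%).

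Females and males differed by less than the error at each temperature too. At 25 °C the log2 difference of females against males was -0.22 ± 0.42 with a 95% interval from -1.13 to 0.69 (edgeR adjusted p = 0.787). At 10 °C it was -0.30 ± 0.42 with an interval from -1.21 to 0.62 (edgeR adjusted p = 0.9999), and without the 10 °C libraries numbered 3 it was -0.44 (edgeR adjusted p = 0.9). Over all genes edgeR called 0 (0%) at both temperatures in the shared fit of 4 groups, and 3369 and 120 genes had p under 0.05 before adjustment. Fitted to the 25 °C libraries alone, edgeR called 592 of 12484 genes between the sexes, and Ast-a had -0.15 there (edgeR adjusted p = 0.872). At 25 °C DESeq2 called 13.6% of genes and voom 31.1%, at 10 °C both called 0, and Ast-a was not among the calls. With library totals the differences were 0.0096 and -0.025, so the direction at 25 °C depended on the scaling.

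The 47 to 153 Ast-a reads of a library gave, for example, an exact Poisson interval from 2.37 to 4.13 CPM for the lowest library, at 3.16 CPM, and from 9.91 to 13.7 CPM for the highest, at 11.7 CPM. These intervals cover counting error only. In the female groups the SD of 0.751 CPM at 10 °C and 0.689 CPM at 25 °C stood beside a mean counting SD of 0.463 and 0.803 CPM. In the male groups the SD was 1.42 and 3.40 CPM beside 0.499 and 0.838 CPM. The edgeR estimate of variation between libraries beyond counting error was 0.384 for Ast-a, as a coefficient of variation, below the median of 0.509 over tested genes.

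Intron reads of Ast-a did not follow its exon reads. They were 18, 15 and 9 in females at 10 °C, 14, 12 and 12 in males at 10 °C, 15, 15 and 0 in females at 25 °C (replicates 1, 2 and 4) and 14, 0 and 13 in males at 25 °C. Exon reads in the same order were 57, 38 and 75, then 108, 81 and 65, then 55, 105 and 51, and then 61, 47 and 140. Thus 0 intron reads stood in female 25 °C replicate 4 and in male 25 °C replicate 2, beside 51 and 47 exon reads, and each of the other 10 libraries had at least 9. By a limit of 3 reads, a count of 0 in these libraries allows an intron share of up to 5.88% and 6.38%, and the upper bounds of their exact two-sided binomial intervals are 6.98% and 7.55%. Their total Ast-a reads were the lowest of the series, but totals include intron reads. In exon reads female 10 °C replicate 2 was lower, at 38. These 2 libraries of 25 °C also had the lowest TPM, a measure that leaves intron reads out.

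As a share of Ast-a reads, introns took 10.7% to 28.3% in the cold libraries and 0% to 21.4% in those of 25 °C. The highest share, in female 10 °C replicate 2, has an exact binomial interval from 16.8% to 42.3%, and that library also had the highest intron share over all genes, 8.25% against 3.81% to 6.12% elsewhere. The means were 17.2% ± 7.29 at 10 °C and 10.2% ± 9.10 at 25 °C (SD, n = 6), a difference of 6.98 percentage points (two-sided exact permutation p = 0.182). Without female 10 °C replicate 2 the difference was 4.75 points (exact permutation p = 0.344), and without the 10 °C libraries numbered 3 it was 8.99 points (exact permutation p = 0.157). The difference was 9.70 points among females (exact p = 0.3) and 4.27 points among males (exact p = 0.6). Pooled over libraries the intron share was 13.4%, against a median of 6.89% over tested genes with several exons. The long introns of Ast-a, 28094 bp in all, carried fewer reads per kb than those of most such genes, whose median was 21.1 reads per kb.

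**Figure D3:**
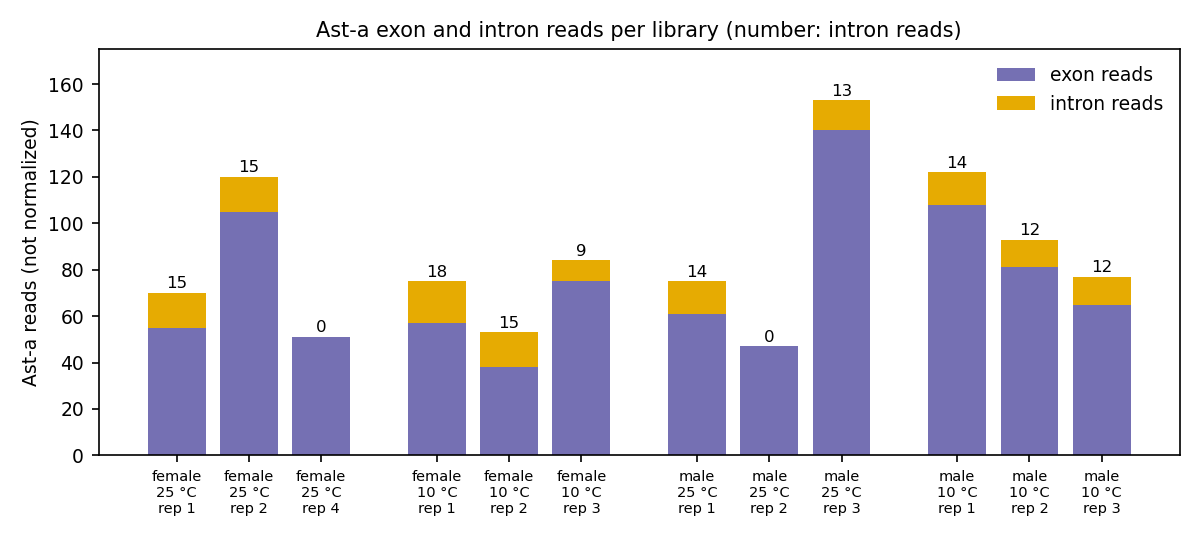
Exon and intron reads of Ast-a in each of the 12 libraries, as counts without normalization, stacked on the vertical axis, with the number of intron reads above each bar. Intron reads lie between 9 and 18 in 10 libraries and are 0 in replicate 4 of the females and replicate 2 of the males at 25 °C.

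The share of exon reads that spanned a junction was similar at both temperatures, 54.0% ± 12.0 at 10 °C and 55.8% ± 14.7 at 25 °C (SD, n = 6). It ran from 32.8% in male 25 °C replicate 1 to 76.4% in female 25 °C replicate 1, and these extremes were both at 25 °C.

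The nearest genes on the scaffold carried little signal. LOC105380143, which ends 24475 bp before Ast-a begins, had 0 to 31 reads per library and means of 0.935 ± 0.225 and 0.925 ± 0.301 CPM at 10 °C in females and males, against 0.344 ± 0.112 and 0.391 ± 0.353 CPM at 25 °C (averaged log2 change 1.30 ± 0.64, edgeR adjusted p = 0.136). LOC105380144, which starts 1134 bp after Ast-a on the same strand, had at most 6 reads in a library and 0 in all 6 libraries at 25 °C, and was not tested.

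Few other genes of neural and hormonal signalling carry a symbol, and 6 matched the list: Th, ace1, Glucl, Rdl-1, Rdl-2 and EcRA. No receptor for allatostatin A and no enzyme of juvenile hormone synthesis was among them. In the averaged cold comparison 1 of the 5 tested members rose and 0 fell, beside 23% of all genes called, and their median log2 change was 0.77 against 0.23 over all genes. In females alone and males alone 0 of 5 passed in edgeR, beside 0.0399% and 0.02% of all genes. Before adjustment 0 and 1 had p under 0.05, beside 2587 and 4813 of 15027 genes. DESeq2 called 0 and 1, beside 5.37% and 23.7% of all genes. The voom test called 1 and 1, beside 10.7% and 46.8%. For the difference between the sexes' responses and for the sexes at 25 °C and 10 °C, 0 of 5 passed in edgeR, DESeq2 or voom. Over all genes edgeR called 0% in each, DESeq2 0.111%, 13.6% and 0%, and voom 0.0532%, 31.1% and 0%. Before adjustment 0 of 5 had p under 0.05, beside 1351, 3369 and 120 of 15027 genes in edgeR.

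The member that rose was ace1, an acetylcholinesterase gene, whose product breaks down the transmitter acetylcholine (averaged log2 change 2.96 ± 0.99, edgeR adjusted p = 0.0498). It had means of 2.16 ± 0.725 and 2.39 ± 1.74 TPM at 10 °C in females and males, and 0.599 ± 1.00 and 0.0512 ± 0.0886 TPM at 25 °C. Its adjusted p lay at the threshold, and its counts at 25 °C were near the floor. They were 0, 33 and 1 reads in females (replicates 1, 2 and 4) and 0, 3 and 0 in males. Female 25 °C replicate 2, at 1.75 TPM, lay within the range of the cold females, 1.38 to 2.81 TPM. Glucl, the glutamate-gated chloride channel that avermectins act on, had means of 7.78 ± 4.88 and 3.51 ± 2.98 TPM at 10 °C and 2.502 ± 2.17 and 1.13 ± 0.316 TPM at 25 °C (log2 0.77 ± 0.36, edgeR adjusted p = 0.12). On the TMM scale Ast-a and Glucl thus had log2 changes of -0.78 and 0.77, neither past the threshold in edgeR. The median gene had 0.23 on this scale, so the 2 genes were not equally far from it.

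Th, the tyrosine hydroxylase that starts dopamine synthesis and supplies cuticle tanning, had a log2 change of 0.08 ± 0.54 with TMM (edgeR adjusted p = 0.923). Its male 25 °C libraries ran from 1.40 to 13.3 TPM. In TPM its mean was higher at 10 °C, at 13.0 against 6.35 in females and 9.67 against 5.45 in males, with overlapping libraries. The ecdysone receptor gene EcRA had 0.38 ± 0.27 with TMM (edgeR adjusted p = 0.284). Its mean TPM at 10 °C was 73.2 against 29.1 in females, with overlap, and 39.5 against 15.9955 in males, without overlap. These TPM differences were not tested. The median gene also had a larger change on log2(TPM + 1), 0.67 against 0.23 with TMM. Rdl-1, a GABA-gated chloride channel subunit, had 1.75 ± 0.96 (edgeR adjusted p = 0.173), with group means of at most 1.02 TPM. Its relative Rdl-2 was at or below 0.254 TPM on average in each group and was not tested. Per length of exon Ast-a was thus above ace1 and the Rdl genes and below EcRA in the mean of each group.

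The genes whose pattern over the 12 libraries was most like that of Ast-a were LOC105389107 and LOC105380409, by Pearson r of log2 CPM with TMM. Their r was 0.92 and 0.88, with Spearman rho of 0.888 and 0.846, and 77 of 15026 other tested genes had r above 0.8. On log2(TPM + 1) the r of these genes was 0.86 and 0.78, and on CPM by library total 0.67 and 0.81. These are descriptions, and the libraries share their temperature groups and scaling factors. LOC105389107 was abundant, with 1707.9 ± 318 and 2435 ± 688 CPM at 25 °C in females and males and 782 ± 189 and 1120 ± 384 CPM at 10 °C, and it fell in the averaged comparison (log2 -1.12 ± 0.27, edgeR adjusted p = 0.0276). LOC105380409 had a log2 change of -0.79 ± 0.32 (edgeR adjusted p = 0.0795), close to that of Ast-a. Both genes were picked for their likeness to Ast-a in these libraries, so a like change with cold follows in part from the choice. The files pair neither identifier with a product name.

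Among genes with a symbol the highest r belonged to the mitochondrial NADH dehydrogenase subunit gene ND3 (0.78), the small heat shock protein gene hsp19.5 (0.77) and the mitochondrial ATP synthase subunit gene ATP6 (0.76). Unlike those of LOC105389107, these likenesses were not seen on log2(TPM + 1), where r was -0.24, 0.08 and -0.10. The lowest r belonged to LOC105384181 (-0.91) and LOC105384387 (-0.90), which on log2(TPM + 1) had 0.23 and -0.07. The likeness of Ast-a to these 5 genes on the TMM scale thus depended on the scale.

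**Figure D4:**
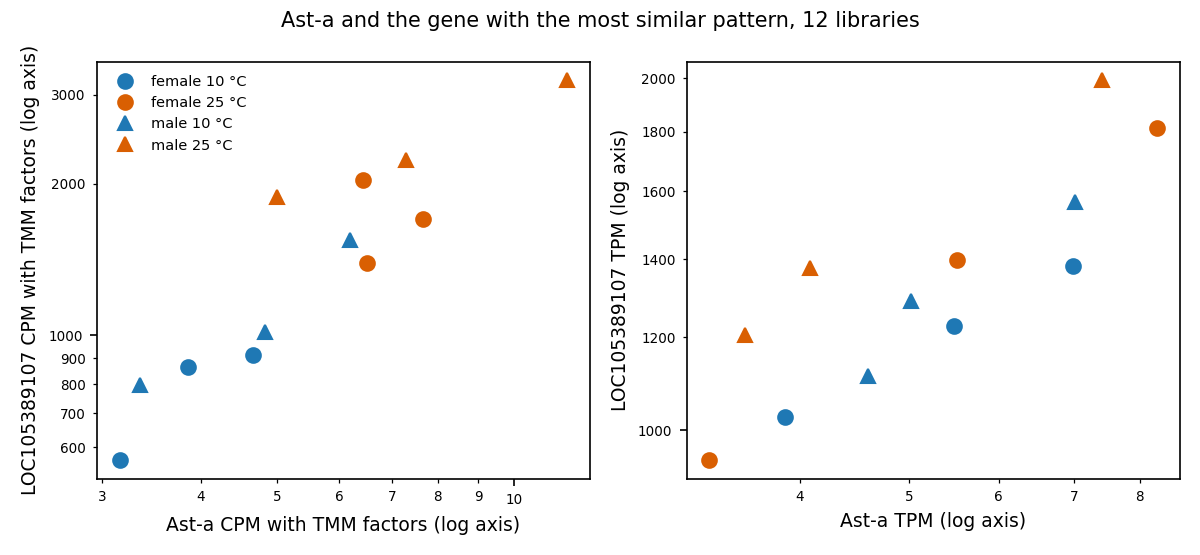
LOC105389107 against Ast-a in the 12 libraries, as CPM with TMM factors and as TPM, on log axes, with colour for temperature and shape for sex. The genes rise together on both scales, with r of 0.92 for log2 CPM and 0.86 for log2(TPM + 1), and on the CPM scale 5 of the 6 cold libraries lie below every library of 25 °C for both genes, while male 10 °C replicate 2 lies among those of 25 °C.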

How the data were processed

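The deposited tables hold, per the file headers, 1 library each, with whole-number read counts per gene (total, unique, exon, intron and exon-exon reads) and the authors' TPM and RPKM. Exon plus intron counts equalled the total in 100% of entries, and the deposited TPM matched exon reads per exon length within 1% in 100%, so TPM leaves intron reads out. Libraries were random-primed from poly(A) RNA and sequenced as paired reads, per the labels' protocols. Not given in the sources used here are the genome build, the aligner, the strand setting and the tool used for counting. Positions are those of the deposited tables, and symbols come from a RefSeq table of the assembly ilPluXylo3.1, which may differ from theirs.

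Total gene counts of all 12 libraries were fitted with 4 group means in edgeR 4.0.16 (R 4.3.3; TMM; default expression filter, which asks for a count of 10 and for 15 reads in total; robust quasi-likelihood). P-values were adjusted over 15027 genes and a gene was called below 0.05. DESeq2 1.42.0 and limma 3.58.1 voom, the latter with a quality weight estimated for each library, were alternatives. The SE is the absolute log2 change divided by the root of F. Deposited TPM and RPKM were tested by exact permutation on log2 with a pseudocount of 1. Levels in CPM are TMM-scaled unless stated. Code was tested on simulated data.

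Named were Ast-a, its scaffold neighbours, the symbol list, and the genes most and least like it over the 12 libraries (2 identifiers each, and 3 with a symbol). Gene, lists and alternatives were chosen with earlier results of these data known. Library totals alone and TMM CPM in the permutation test were chosen after seeing these values. The labels describe each library as its own pool of larvae, so p-values measure the spread between pools, and no 2 libraries of a group matched within counting error.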

Additional observations from a re-analysis of the deposited data

How the results depend on the processing

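In the count models the Ast-a cold changes kept their negative sign in females, in males and averaged under every alternative run, while on log2(TPM + 1) the difference was 0.07 over both sexes and 0.15 in males. Averaged, the change passed with DESeq2 (-0.75) and voom (-0.90), and in males with voom (-1.04). The cause was not tested. Intron reads alone gave -0.20 averaged. With library size alone it was -0.15. Leaving out each library in turn gave -0.97 to -0.69 in females, -0.97 to -0.30 in males, -0.89 to -0.56 averaged, -0.51 to 0.15 for the difference between the sexes' responses, -0.48 to 0.19 for the sexes at 25 °C, -0.50 to -0.09 at 10 °C, -0.030 to 0.19 for log2(TPM + 1) and 4.75 to 9.23 points for the intron share, with 0 of these passing.

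Small differences changed sign. The difference between responses turned to 0.22 with intron reads and 0.28 with voom. The sexes at 25 °C turned to 0.0096 with library size alone, 0.060 with intron reads and 0.023 with exon-length offsets, and at 10 °C to 0.28 with intron reads and 0.081 with voom. The TPM difference turned to -0.018 in females alone, -0.093 without the 10 °C libraries numbered 3 and -0.15 with RPKM. With TMM CPM in place of TPM, a setting chosen after seeing the values, the difference was larger, at -0.64 (exact permutation p = 0.00433, not adjusted). In the averaged edgeR comparison 6612 of 15027 genes had p under 0.05 before adjustment. The cause of these changes of sign was not tested.

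Replicate numbers did not pair the libraries: 3 of 15 same-numbered pairs had deviations correlated above 0.1 (range -0.74 to 0.57), and 2 of 12 libraries correlated best with one of their own number. With the replicate block the averaged change was -0.85 (edgeR adjusted p = 0.14), the responses differed by -0.36, and the sexes at 25 °C turned to 0.033. The block took the averaged calls over all genes from 3453 to 20, with female 25 °C replicate 4 alone in its block. With 47 to 153 reads a library, depth limits Ast-a to changes well above counting error.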

Other observations

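Female 25 °C replicate 4 and male 25 °C replicate 2 had 0 Ast-a intron reads while each of the other 10 libraries had 9 or more. Their intron share over all genes, 3.81% and 4.14%, compared with at most 4.89% in the other 25 °C libraries. Of 3171 genes with at least 9 intron reads in each of those 10 libraries, 3 had 0 in both, Ast-a among them. Among the 158 of these with at most double the intron reads of Ast-a, it was the only 1. This count was made after the Ast-a values had been seen. The libraries and both limits were taken from Ast-a itself, which therefore belongs to the set by construction. Genes with 0 in other pairs of libraries were not counted, so the count cannot show how rare such a pattern is.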
